A study of Saccharomyces cerevisiae with 12 samples.

Results

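RNA recovered with the RNA-binding protein Npl3 from heat-stressed budding yeast was set against RNA recovered from a heated control without a tag. The comparison took 4 of the 12 samples of the series, chosen by their titles: 2 Npl3 immunoprecipitates and 2 no-tag controls, all at 42 °C. The Npl3 libraries came from strain HKY157. The no-tag libraries came from HKY36/HKY381, a pair of strain names that the labels do not assign to single libraries. Cultures of all strains were in log phase in rich medium at 25 °C, and each was divided so that a portion could spend 30 min at 42 °C before UV cross-linking. Lysates were incubated for 4 h with c-myc antibody beads and GFP-Trap beads and washed 5 times, and the labels give neither the tag of Npl3 nor the beads used for each sample. The other 8 samples are the same strains at 25 °C and strain HKY1266 for the export receptor Mex67 at both temperatures. Both libraries of each group are biological replicates according to the series design. No library of total RNA was analysed here, so more of an RNA in the cells of a strain and more of it bound to Npl3 cannot be told apart.

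Npl3 is an SR-like protein of budding yeast that joins messages while they are transcribed. It takes part in splicing, where it contacts the U1 particle, and in the formation of message ends, and it serves as an adaptor that recruits Mex67 for export through the nuclear pore. Heat stress shuts down many housekeeping genes and induces chaperone genes in the same cells, and the series is concerned with how messages leave the nucleus under that stress.

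The depth differed widely between the libraries. The Npl3 libraries held 778484 and 1011990 counts, against 87741 and 485848 counts in the no-tag libraries (replicates 1 and 2). Messages of nuclear protein-coding genes took 82.7% and 84.3% of the Npl3 counts, against 55.2% and 77.4% of the no-tag counts. Small nucleolar, small nuclear and RNase P and MRP RNAs took 11.2% and 10.9% of the Npl3 counts, against 31.8% and 13.6% of the no-tag counts. The Npl3 libraries thus resembled each other in RNA makeup, and no-tag replicate 1 stood apart from the other 3. Across the 5245 features with enough counts to be tested, the rank correlation was 0.876 between the Npl3 libraries and 0.796 between the no-tag libraries. Npl3 replicate 2 had 0.791 with no-tag replicate 2, and the other pairs across the groups had 0.512 to 0.698. These correlations share the library depth as well as the RNA bound.

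Messages of heat shock genes, which heat induces, were low in no-tag replicate 1. HSP26, the gene of a small chaperone, had 10330 and 5307 CPM (TMM-scaled counts relative to library size) in the Npl3 libraries, against 301 and 3553 CPM in the no-tag libraries. HSP12, the gene of a membrane-protecting stress protein, had 5742 and 2604 CPM with Npl3, against 301 and 4337 CPM without a tag. HSP104, the gene of the disaggregase, had 2500 and 2765 CPM, against 1154 and 2679 CPM. All 3 were lowest in no-tag replicate 1, and without that library no-tag replicate 2 lay between the Npl3 libraries for HSP12 and HSP104. Genes that mark mating type and strain differed too. STE2, the receptor of a cells, had 6.21 and 205 CPM with Npl3, against 0 and 126 CPM without a tag, so it marked replicate 2 of both groups. STE3, the receptor of alpha cells, had 1.24 and 54.5 CPM with Npl3, against 468 and 300 CPM without a tag. URA3, a uracil synthesis gene used as a strain marker, had 1730 and 826 CPM with Npl3, against 151 and 16 CPM without a tag. LEU2, a leucine synthesis gene used likewise, had 12.4 and 13.4 CPM with Npl3, against 870 and 16 CPM without a tag. Of 29 strain and mating-type markers 23 were tested, and 1 was called higher (4.35%) and 0 lower, against 6.52% and 0.934% of all features. Their median log2 change was −0.38, against 0.10 for all features. Their summed level was 2809 and 3941 CPM with Npl3, against 4851 and 3191 CPM without a tag. Of the genes specific to a cells, STE2, MFA1, MFA2, BAR1, AGA2 and ASG7 were at 0 in no-tag replicate 1, and of those specific to alpha cells MF(ALPHA)2 was at 0 in Npl3 replicate 1. The part of these differences in the results below was not tested.

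**Figure D1:**
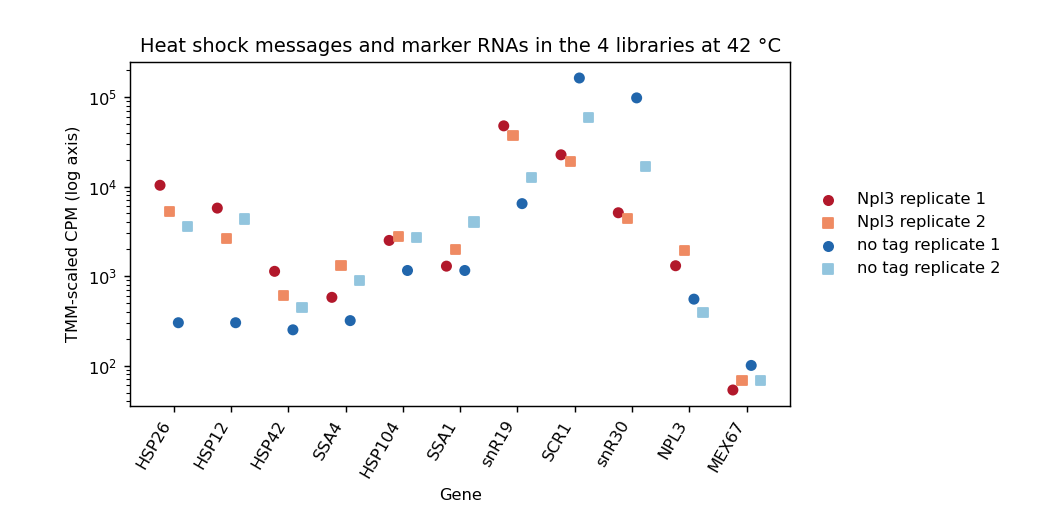
TMM-scaled CPM (log axis) of 6 heat shock messages, 3 non-coding RNAs and the NPL3 and MEX67 messages, 1 point for each library, with Npl3 in red and orange and no tag in blue. No-tag replicate 1 had the lowest HSP26, HSP12, HSP42, SSA4, HSP104 and SSA1 and the highest SCR1 and snR30.

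The comparison asked which RNAs were recovered more with Npl3 than by background after heat. The edgeR quasi-likelihood test with Benjamini-Hochberg adjustment called 342 features higher with Npl3 (6.52% of those tested) and 49 lower (0.934%), or 391 in all (7.45%). The 342 had a median log2 change of 2.74 with a median SE of 0.62, and the 49 had a median of −1.98 with a median SE of 0.50. Protein-coding genes made up 339 of the higher and 47 of the lower features, and the other 2 lower ones were the small nucleolar RNAs snR30 and snR84. In all 391 the values of the 2 groups did not overlap, as was so for 59.4% of all tested features. The control was thinly read at the higher genes: both no-tag libraries together held a median of 13 counts there, against 325.5 in the Npl3 libraries. For 8 of the 342 the control had no counts, for 31 it had 1 to 3 counts, and for 93 it had over 20. In no-tag replicate 1, 1 count is 16.7 CPM, so values of 16.7 and 33.5 CPM in that library are 1 and 2 counts. In no-tag replicate 2, 1 count is 2.29 CPM. At the lower genes the medians were 164 counts with Npl3 and 124 in the control. Of the 342 genes, 324 (94.7%) were higher in Npl3 replicate 1 than in replicate 2, against 54.3% of all tested features, so replicate 1 carried the larger enrichment. Of the 49 lower genes 3 (6.12%) were higher in Npl3 replicate 1 than in replicate 2, and 42 (85.7%) were higher in no-tag replicate 1 than in no-tag replicate 2, against 41.0% of all features.

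The number of calls rested on single libraries. Without no-tag replicate 1 the test called 1 gene, FYV7. It called 0 without no-tag replicate 2 (918 features had an unadjusted p under 0.05) and 0 without Npl3 replicate 1 (712 such features). Without Npl3 replicate 2 it called 666. No called gene changed sign in any of these fits. The groups did not overlap in any called gene, so this was nearly fixed in advance. Over all 5245 tested features the sign was kept in 4765 without no-tag replicate 1 and in 4295 without no-tag replicate 2. The median of the 342 higher genes was 2.61 without no-tag replicate 1 and 2.81 without no-tag replicate 2, and that of the 49 lower genes was −1.77 and −2.34. Sizes of single genes moved more. Without no-tag replicate 2, 120 of the 342 had a change over 1.5-fold larger and 74 one over 1.5-fold smaller, and without Npl3 replicate 1 134 were smaller by that much. All counts of called members below come from the fit of all libraries. With any 1 of no-tag replicate 1, no-tag replicate 2 and Npl3 replicate 1 left out, each of them was 0, except for FYV7.

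**Figure D2:**
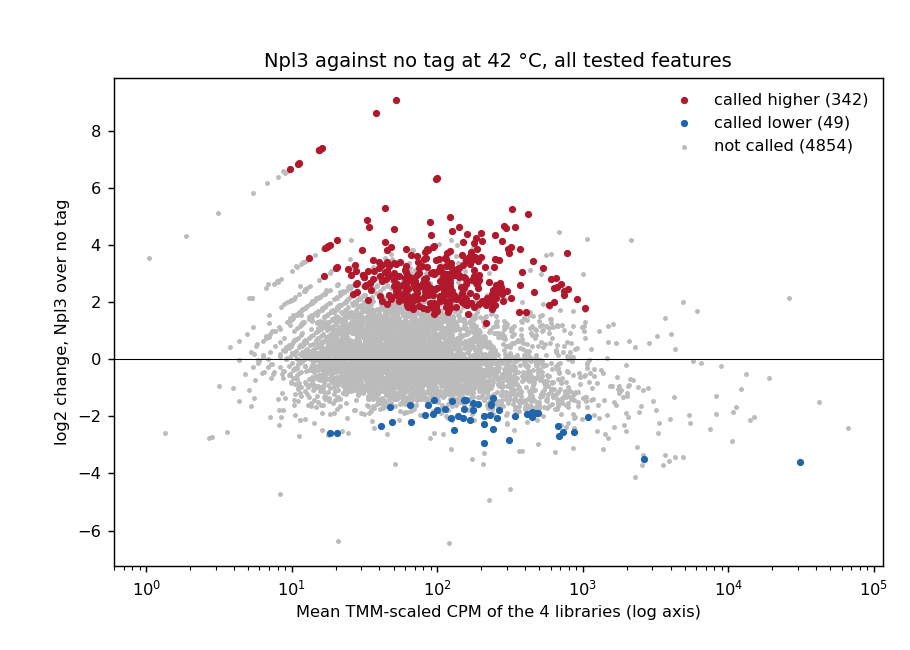
The log2 change of Npl3 over no tag at 42 °C for each of the 5245 tested features (vertical axis) against its mean TMM-scaled CPM over the 4 libraries (log axis). The 342 features called higher are red and the 49 called lower blue, and the points above 6 are genes with 0 to 3 counts in the control, where the fitted change is not a measured fold.

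Messages of the mRNA export and nuclear mRNA binding machinery, the pathway of Npl3 itself, included GFD1 and CDC31, which had the largest changes of the named genes with over 3 counts in the control. Of 38 tested members 8 rose and 0 fell, while the median of the list was −0.11, against 0.10 for all features. The called share was 21.1%, against 6.52% of all features called higher. In 16 of the 38 both Npl3 libraries lay above both controls and in 12 both lay below, against 34.9% and 24.5% of all features. After length correction 2 members were called higher, where 87 of all 5245 features were, and the median of the list was 0.44 (0.22 for all features). The median was −0.24 without no-tag replicate 1 (0.00 for all) and 0.40 without no-tag replicate 2 (0.32 for all), so its sign depended on the control. GFD1 (YMR255W, build R64, chromosome XIII, 778001 to 778567), a cofactor of the export helicase Dbp5, had 957 and 311 CPM with Npl3, against 16.7 and 16 CPM without a tag. These control values rest on 1 and 7 counts. Both Npl3 libraries lay far above both controls, and the log2 change was 5.27 ± 0.92 (± SE, which rests on the spread within all 6 groups; adjusted p = 0.0181 with edgeR). CDC31 (chromosome XV, 811008 to 811493), the centrin shared by the spindle pole body and the TREX-2 export complex, had 1160 and 465 CPM, against 33.5 and 20.6 CPM. Its log2 change was 5.11 ± 0.74 (adjusted p = 0.0152 with edgeR). SEM1, a small protein of both TREX-2 and the proteasome lid, had 772 and 389 CPM, against 50.2 and 41.3 CPM, a log2 change of 3.73 ± 0.62 (adjusted p = 0.0152). SUS1, the TREX-2 and SAGA subunit, rose by 2.72, MFT1 of the THO complex by 2.83, CBC2 of the nuclear cap-binding complex by 2.33 and MTR2, the partner of Mex67, by 2.03 on the log2 scale. GFD1 lies 377 bases from COX7, whose message also rose (below), and the kit named in the labels does not mark strand.

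The message of NPL3 itself (chromosome IV, 1328783 to 1330027) rose. It had 1304 and 1910 CPM with Npl3, against 552 and 390 CPM without a tag. Both Npl3 libraries were higher, here with replicate 2 above replicate 1, and the log2 change was 1.79 ± 0.51 (adjusted p = 0.0496 with edgeR). It lay just inside the threshold. The MEX67 message had 53.4 and 68.8 CPM with Npl3, against 100 and 68.8 CPM without a tag, and a log2 change of −0.36 ± 0.49 (adjusted p = 0.675), with the opposite sign under total-count scaling and under length correction.

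Spliceosome messages were higher with Npl3 in their median. Of 85 tested members 18 rose (21.2%, against 6.52% of all features) and 0 fell, and the median was 1.16, against 0.10 for all features. In 58 of the 85 the Npl3 libraries both lay above both controls and in 6 both lay below, against 1830 and 1284 of all 5245. SNT309 (chromosome XVI, 730492 to 731019), a member of the Prp19 complex that activates the spliceosome, had 812 and 285 CPM with Npl3, against 33.5 and 18.3 CPM without a tag. CWC15, another protein of that complex, had 811 and 304 CPM, against 66.9 and 11.5 CPM. LSM4, of the Lsm ring that holds the end of U6, had 484 and 178 CPM, against 33.5 and 16 CPM. The Npl3 libraries were above the controls in all 3, and the log2 changes were 4.67 ± 0.78, 4.59 ± 0.84 and 4.07 ± 0.70 (adjusted p = 0.0152, 0.0181 and 0.0152 with edgeR). The risen members covered several stages of splicing. YHC1 and SNP1 encode proteins of the U1 particle (2.47 and 3.15), SMB1, SMD3 and SME1 the Sm ring (2.20, 3.09 and 2.86), LSM2, LSM3 and LSM7 the Lsm ring (2.46, 3.76 and 2.38) and PRP3 a U4/U6 protein (3.24).

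The spliceosomal snRNAs differed in sign and none passed the test. The 4 tested had a median log2 change of −0.58. SnR19, the U1 snRNA (chromosome XIV, 230105 to 230672), had 47610 and 37260 CPM with Npl3, against 6441 and 12620 CPM without a tag. Its log2 change was 2.15 ± 0.68 and missed the threshold (adjusted p = 0.0665 with edgeR), and it was 1.67 without no-tag replicate 1 and 2.56 without no-tag replicate 2. LSR1, the U2 snRNA, had 20150 and 23210 CPM with Npl3, against 88720 and 34620 CPM without a tag, a log2 change of −1.51 ± 0.71 (adjusted p = 0.186). U1 was thus higher in both Npl3 libraries than in either control, and U2 lower. SnR6, the U6 snRNA, had 69.5 and 70.5 CPM with Npl3, against 66.9 and 50.4 CPM without a tag, a log2 change of 0.34 ± 1.40. The U4 snRNA, snR14, had 104 and 135 CPM with Npl3, against 652 and 158 CPM without a tag. Its log2 change was −1.64 ± 0.89 (adjusted p = 0.258), and −0.46 without no-tag replicate 1.

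Messages for the respiratory chain and ATP synthase formed the list with the highest median. Of 45 tested nuclear-encoded members 19 rose (42.2%, against 6.52% of all features) and 0 fell. The median was 1.70, and 33 lay above both controls in both Npl3 libraries, against 34.9% of all features. The median was 1.63 without no-tag replicate 1 and 2.40 without no-tag replicate 2. Their summed level was 24620 and 10880 CPM with Npl3, against 4400 and 5286 CPM without a tag. ATP19 (chromosome XV, 185438 to 185644), a small subunit of ATP synthase, had 962 and 379 CPM, against 0 and 34.4 CPM. COX7 had 407 and 201 CPM, against 16.7 and 13.8 CPM, and COX9 had 928 and 438 CPM, against 66.9 and 39 CPM. Both encode small subunits of cytochrome oxidase. The values were again highest in Npl3 replicate 1 and did not overlap with the controls, with log2 changes of 4.63 ± 0.83, 4.39 ± 0.70 and 3.87 ± 0.76 (adjusted p = 0.0181, 0.0152 and 0.0185 with edgeR). COX26, a protein of the supercomplexes, rose by 4.41, QCR6, QCR9 and QCR10 of the bc1 complex by 3.72, 2.39 and 3.59, ATP15, ATP18 and ATP20 of ATP synthase by 3.23, 2.14 and 3.04, and CYC1, cytochrome c, by 3.15. The list is one of short genes: their median length was 444 bp, while that of all tested coding genes was 1287 bp.

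Other lists of mitochondrial genes differed in their medians, and those for assembly, the mitochondrial ribosome and import lay above the 0.10 of all features. Of 40 genes listed as assembly factors of cytochrome oxidase and ATP synthase 8 rose (20.0%, against 6.52% of all features) and 0 fell (median 0.90). COA2, an assembly factor of cytochrome oxidase, had 168 and 40.3 CPM with Npl3, against 0 in both no-tag libraries, which is at least 15.1-fold higher when the control is set at 3 counts over the group. CBP6, counted in this list although it is a translation activator for cytochrome b, had 226 and 86.4 CPM, against 16.7 and 9.17 CPM. Its log2 change was 3.88 ± 0.73. Of 76 mitochondrial ribosomal protein messages 14 rose (18.4%) and 0 fell (median 1.11). In both Npl3 libraries 56 lay above both controls and 2 below, against 34.9% and 24.5% of all features. MRPL25, a protein of the large mitochondrial subunit, had 482 and 171 CPM, against 0 and 29.8 CPM, and a log2 change of 3.77 ± 0.80. Of 33 import genes 4 rose (12.1%, median 0.80). Among them were TIM10, a chaperone of the space between the membranes (2.67 ± 0.56), and PAM16, of the import motor (2.52 ± 0.68). Of 12 mitochondrial chaperone genes 2 rose (16.7%, median 0.14): JAC1, a cochaperone of iron-sulfur cluster transfer (3.33 ± 0.67), and MGE1, the nucleotide exchange factor of mitochondrial Hsp70, which is in the import list too (2.14 ± 0.46). Of the mitochondrial genome's own genes 15 of 31 were tested, with a median of −0.05. COX2 was the 1 that rose (6.67% of the 15), with a log2 change of 2.52 ± 0.57. The median of the assembly factors was 0.65 without no-tag replicate 1 and 1.89 without no-tag replicate 2, and that of the mitochondrial ribosome 0.86 and 1.62. The assembly and import lists are of short genes, with median lengths of 606 and 624 bp. After length correction the assembly list had a median of 0.42 with 1 called higher. The import list then had 0.01 with 0 called. All features had 0.22 in that fit, with 87 of 5245 called higher.

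**Figure D3:**
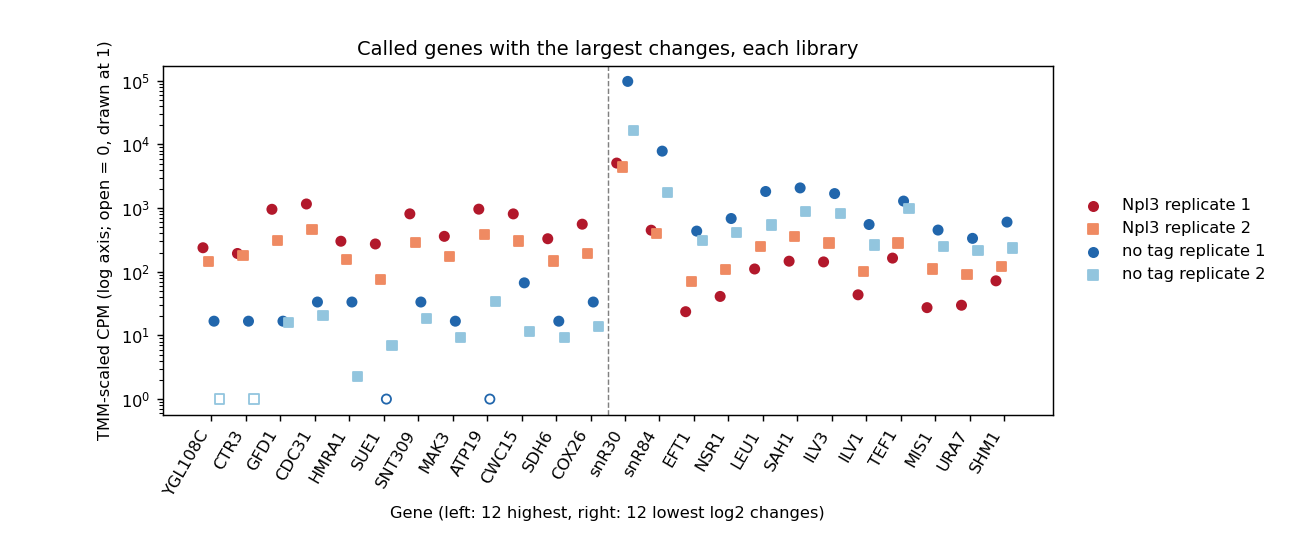
TMM-scaled CPM (log axis) of the 12 highest and 12 lowest log2 changes among called genes averaging at least 50 counts, 1 point for each library, with values of 0 drawn open at 1. Npl3 replicate 1 lies above replicate 2 in the genes on the left and below it in most on the right, where no-tag replicate 1 lies above no-tag replicate 2.

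The remaining genes at the top of that ranking are in none of the pathway lists described here. CTR3, a copper transporter gene, had 194 and 179 CPM with Npl3, against 16.7 and 0 CPM without a tag. With 1 count in the control, its CPM ratio was 91.6 with a 95% counting interval of 16.3 to 3630 (exact Poisson, counting error only). SUE1, needed for the turnover of unstable cytochrome c, had 273 and 74.7 CPM, against 0 and 6.88 CPM, a ratio of 25.6 with an interval of 8.67 to 125. MAK3, a catalytic subunit of an N-terminal acetyltransferase, had 360 and 174 CPM, against 16.7 and 9.17 CPM, and a log2 change of 4.65 ± 0.90. SDH6, an assembly factor of succinate dehydrogenase, had 330 and 148 CPM, against 16.7 and 9.17 CPM, and 4.50 ± 0.73. HMRA1, a silent mating-type gene with a near-identical copy at the mating-type locus, had 302 and 154 CPM, against 33.5 and 2.29 CPM, a ratio of 35.3 with an interval of 12 to 172. It is 1 of the strain and mating-type markers, whose part in this value was not tested.

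Several lists for other nuclear and cytosolic machines had called shares near the 6.52% of all features. Of 31 RNA polymerase subunits 2 rose (6.45%, median 0.69): RPB5 (2.33 ± 0.42) and RPO26 (1.99 ± 0.41), both shared by the nuclear polymerases. Of 43 proteasome genes 4 rose and 1 fell (median 0.65), with RPN13, a ubiquitin receptor, at 2.71 ± 0.62, PRE3, a catalytic subunit, at 1.88 ± 0.41 and RPN10, another ubiquitin receptor, at −1.41 ± 0.35. Of 24 exosome and nuclear surveillance genes 2 rose (8.33%, median −0.10), MPP6 (3.67 ± 0.74) and LRP1 (2.12 ± 0.58), both cofactors of the nuclear exosome. Ribosome biogenesis messages had medians near that of all features. For the small subunit 7 of 84 rose and 1 fell (0.15), and for the large subunit 5 of 81 rose (6.17%) and 0 fell (−0.24). FYV7, of small-subunit RNA processing, had 196 and 114 CPM with Npl3, against 50.2 and 0 CPM without a tag, a ratio of 24.3 with a counting interval of 8.24 to 119. CGR1 and NOP16, of large-subunit assembly, rose by 3.42 ± 0.58 and 3.20 ± 0.61. NSR1, the nucleolin-like protein of pre-rRNA processing, was the 1 that fell, with 41 and 109 CPM, against 686 and 408 CPM, and a log2 change of −2.82 ± 0.61.

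Of 137 cytosolic ribosomal protein messages 3 rose (2.19%, against 6.52% of all features) and 0 fell, with a median of −0.49 and 45 above 0. In both Npl3 libraries 34 lay above both controls and 74 below, against 34.9% and 24.5% of all features. RPS29B had 1337 and 1097 CPM with Npl3, against 284 and 232 CPM without a tag (2.26 ± 0.58), and RPS30A and RPL31B had 2.10 ± 0.55 and 1.65 ± 0.46. Each of these has a paralogue, so reads could be shared between copies. Among 49 translation factors 1 rose and 2 fell (median −0.71), where 6.52% and 0.934% of all features did. Of the 49, 8 lay above both controls and 29 below. TIF11, the initiation factor eIF1A, rose by 2.47 ± 0.57. EFT1, 1 of a pair of near-identical genes for elongation factor 2, had 23.6 and 70.5 CPM, against 435 and 307 CPM (−2.92 ± 0.74), and TEF1, 1 of a pair for elongation factor 1A, had −2.33 ± 0.63. The split of reads between the copies is uncertain for both.

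Messages for amino acid synthesis lay on the lower side. Of 12 branched-chain members 4 fell (33.3%, against 0.934% of all features) and 0 rose, with a median of −1.59. After length correction 1 was called lower, where 9 of all 5245 features were, and the median was −1.42. Their summed level was 2218 and 2783 CPM with Npl3, against 11780 and 5086 CPM without a tag. The list includes the strain marker LEU2, which was not called. It had 12.4 and 13.4 CPM with Npl3, against 870 and 16 CPM without a tag, and its part in the sum was not tested. LEU1 (chromosome VII, 476313 to 478652), isopropylmalate isomerase, had 111 and 252 CPM with Npl3, against 1823 and 541 CPM without a tag. ILV3, dihydroxyacid dehydratase, had 143 and 284 CPM, against 1690 and 816 CPM. ILV1, threonine deaminase, had 43.4 and 99.9 CPM, against 552 and 264 CPM. All 3 were lowest in Npl3 replicate 1 and highest in no-tag replicate 1, with log2 changes of −2.67 ± 0.66, −2.54 ± 0.59 and −2.43 ± 0.48 (adjusted p = 0.032, 0.0262 and 0.0185 with edgeR). Without no-tag replicate 1 they were −1.62, −1.99 and −1.92, and the list's median was −1.08. Without no-tag replicate 2 they were −3.46, −3.12 and −3.06, and the median was −2.10. LEU9, a synthase of the first leucine step, had −1.76 ± 0.49.

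Of 75 other amino acid synthesis genes 6 fell (8.0%, against 0.934% of all features) and 0 rose. Their median was −0.58, with −0.27 without no-tag replicate 1 and −1.05 without no-tag replicate 2. After length correction 0 were called, where 87 of all 5245 features were called higher and 9 lower, and the median was −0.39. SHM1, the mitochondrial serine hydroxymethyltransferase, had 72 and 119 CPM with Npl3, against 602 and 236 CPM without a tag (−2.05 ± 0.50, with −1.36 without no-tag replicate 1 and −2.79 without no-tag replicate 2). GDH1, glutamate dehydrogenase, had 125 and 227 CPM, against 803 and 626 CPM (−2.01 ± 0.55), and THR1, homoserine kinase, had −1.98 ± 0.47. TRP5, PRO3 and LYS4, of tryptophan, proline and lysine synthesis, fell by 1.90, 1.54 and 1.48. Outside the lists, SAH1, which breaks down S-adenosylhomocysteine, had 147 and 354 CPM, against 2074 and 880 CPM (−2.54 ± 0.67, with −1.86 and −3.18 in those fits). MIS1, the mitochondrial one-carbon synthase, had −2.27 ± 0.63, and URA7, CTP synthase, had −2.11 ± 0.57. For each of these genes both Npl3 libraries lay below both controls.

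The small nucleolar RNAs were lower in level with few calls. Of 78 listed RNAs 62 were tested, 0 were called higher and 2 lower, the median was −2.03, and 51 lay below both controls in both Npl3 libraries, against 24.5% of all features. The called share was 3.23%, against 0.934% of all features called lower. Their summed level was 40500 and 32100 CPM with Npl3, against 371400 and 104500 CPM without a tag, so the control libraries differed from each other more than the Npl3 libraries did. SnR30 (chromosome XII, 198784 to 199389), needed for cleavage of pre-rRNA, had 5094 and 4433 CPM, against 97720 and 16660 CPM. Its log2 change was −3.59 ± 0.98 (adjusted p = 0.0454 with edgeR), with −1.88 without no-tag replicate 1 and −4.51 without no-tag replicate 2. SnR84, a pseudouridine guide, had 449 and 402 CPM, against 7846 and 1749 CPM (−3.49 ± 0.79, with −2.11 and −4.36 in those fits). SCR1, the RNA of the signal recognition particle, had 22610 and 19070 CPM, against 163000 and 59450 CPM, and −2.42 ± 0.88 (adjusted p = 0.0996). The median of the list was −1.21 without no-tag replicate 1 and −2.55 without no-tag replicate 2.

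Heat shock messages had few calls. Of 42 heat shock and chaperone genes 0 rose (6.52% of all features did) and 1 fell (2.38%, against 0.934% of all features), SSZ1, a ribosome-bound Hsp70, with 139 and 246 CPM with Npl3, against 820 and 589 CPM without a tag (−1.85 ± 0.50). The list had a median of 0.07, with 11 members above both controls and 11 below, against 34.9% and 24.5% of all features. Its median was −0.23 without no-tag replicate 1 and 0.26 without no-tag replicate 2. The calls in this list moved without Npl3 replicate 2, as did those over all features. HSP26 had a log2 change of 2.00 ± 1.15 (adjusted p = 0.278), with 1.05 without no-tag replicate 1 and 4.53 without no-tag replicate 2. HSP42 had 1.28 ± 0.79, with 0.88 and 1.62 in those fits, and SSA4 had 0.60 ± 0.84, with 0.03 and 1.45. Of 76 general stress genes 3 rose and 0 fell, with a median of 0.25. That median was −0.21 without no-tag replicate 1 and 1.53 without no-tag replicate 2, so its sign depended on which control was used. The 3 were GPX1, a glutathione peroxidase (3.96 ± 0.97), and the glutaredoxins GRX1 (2.65 ± 0.61) and GRX2 (2.35 ± 0.63), and the annotation of GRX2 overlaps EMI1, also called higher. Glycolysis and fermentation genes had a median of −0.71 over 23 members with 0 called (13 below both controls, against 24.5% of all features), and the 11 histone genes had −0.08 with 0 called.

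**Figure D4:**
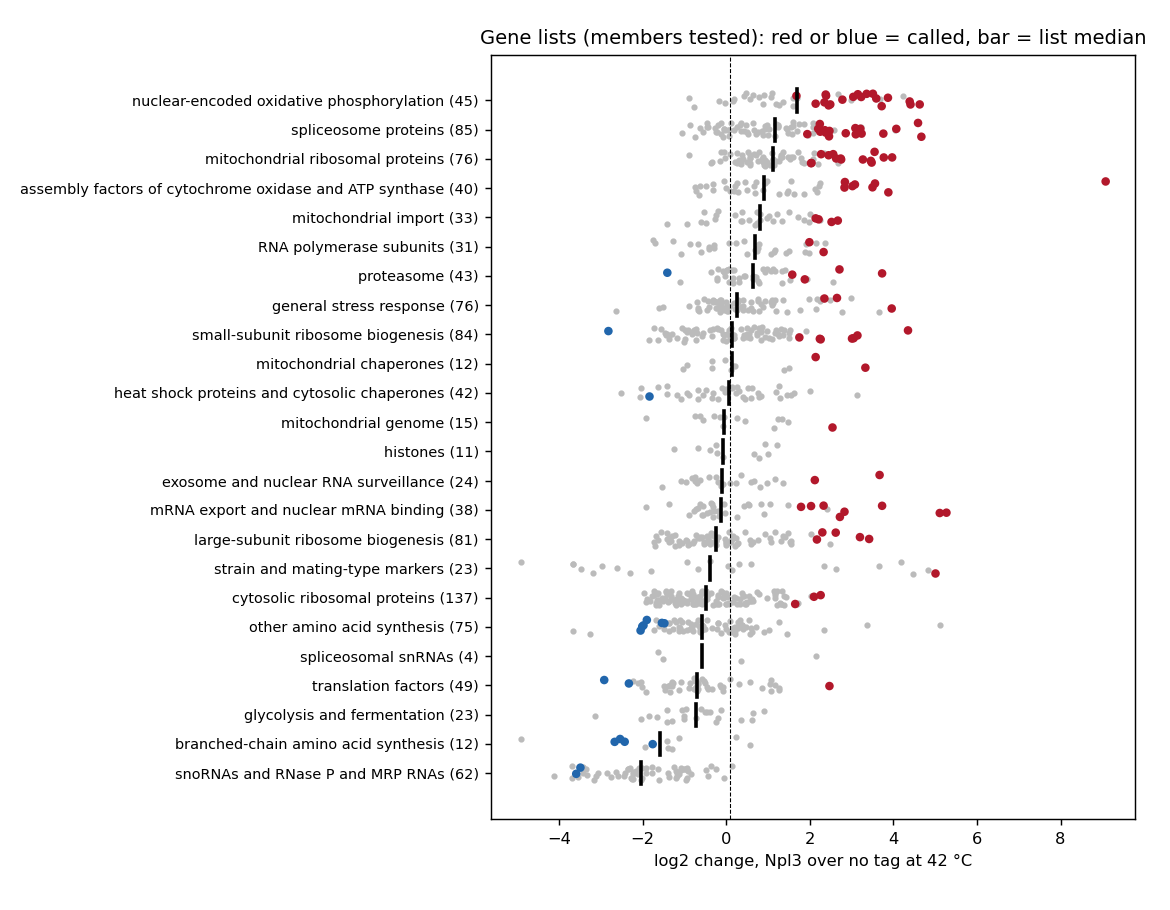
The log2 change of Npl3 over no tag at 42 °C for each tested member of the 24 gene lists, ordered by median (black bars), with members called higher in red and lower in blue and the median of all features (0.10) dashed. The list of oxidative phosphorylation is at the top with a median of 1.70, and the list of small nucleolar RNAs at the bottom with −2.03.

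The log2 change fell with gene length as a trend across genes. Over the 5147 coding genes the rank correlation of the log2 change with gene length was −0.422, where genes are points and not replicates. For single pairs of an Npl3 and a no-tag library it lay between −0.435 and −0.257. It was −0.273 for Npl3 replicate 1 minus replicate 2, and −0.0487 for no-tag replicate 1 minus replicate 2. The trend was thus present between the Npl3 libraries as well as between the groups. The 136 genes of up to 300 bp had a median log2 change of 2.04, and it was 1.35 for the 584 genes of 300 to 600 bp, 0.07 for the 1200 genes of 1000 to 1500 bp and −0.38 for the 482 genes over 3000 bp. In the shortest class 31.6% of genes were called higher, against 6.52% of all features, and in the longest class 0.207%. The median length was 561 bp among higher coding genes, 1686 bp among lower ones and 1287 bp among all. The called genes overlapped in length, with 15 higher and 13 lower genes at 1500 to 2000 bp and 9 and 10 at 2000 to 3000 bp.

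After a correction for the length trend in each library, 83 of the 342 higher and 7 of the 49 lower genes were called. Their medians were then 2.11 and −1.70, with the median of all features at 0.22. Called under that correction were GFD1 (4.47), CDC31 (4.13), SNT309 (3.78), CWC15 (3.72), LSM4 (3.27) and CTR3, and ILV1 (−2.08) and NSR1 (−2.63) among the lower genes. Of all 5245 features 87 were then called higher and 9 lower. The list of oxidative phosphorylation then had 2 of 45 members called higher and a median of 0.86. The mitochondrial ribosome had 3 of 76 and 0.62, and the spliceosome 7 of 85 and 1.03. The spliceosome list, whose median length of 903 bp was nearer to that of all coding genes, kept most of its median.

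**Figure D5:**
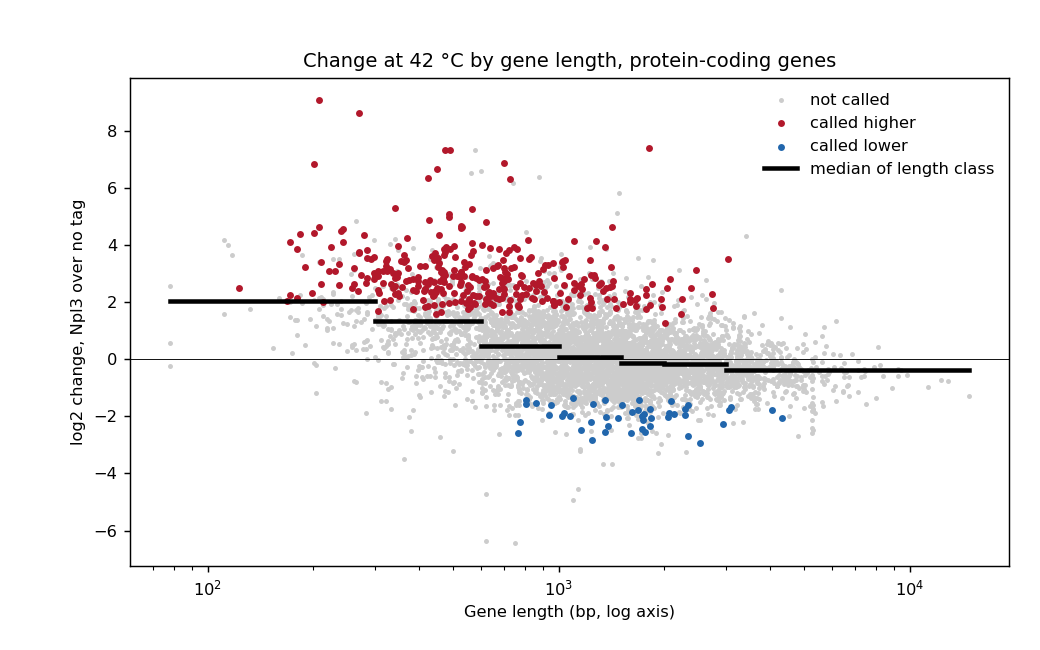
The log2 change of Npl3 over no tag at 42 °C against gene length (log axis, bp) for the 5147 tested protein-coding genes, with called genes in colour and the median of 7 length classes as black bars. The medians fall from 2.04 in genes of up to 300 bp to −0.38 in those over 3000 bp.

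Whether the enrichment with Npl3 differed after heat was tested as the difference between its comparison at 42 °C and the one at 25 °C, which used other libraries of the same strains and cultures. EdgeR called 0 features (0.0%), although 153 had an unadjusted p under 0.05, and DESeq2 and limma voom called 0 too (109 and 135 unadjusted). With each culture as a block, a fit added after the data were seen, 0 were called and 162 had an unadjusted p under 0.05. GFD1 had a log2 change of 5.27 ± 0.92 at 42 °C and 3.32 ± 0.76 at 25 °C, a difference of 1.95 ± 1.18. CDC31 had 5.11 ± 0.74 and 2.89 ± 0.61, a difference of 2.22 ± 0.94, and COX9 had 3.87 ± 0.76 and 3.46 ± 0.69. The SE of these differences allows sizeable changes in either gene, so the test does not show that the enrichment was equal. At 25 °C 119 features were called higher (2.27%) and 7 lower (0.133%). Of the 342 genes called higher at 42 °C, 88 (25.7%) were also called higher at 25 °C, which is 73.9% of the 119. Of the 342, 339 had a log2 change above 0 at 25 °C, with a median of 1.73, against 50.0% of all features. Of the 49 lower genes 48 lay below 0 at 25 °C, with a median of −1.12, and 1 was called lower in both.

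The libraries of Mex67 at 42 °C gave a comparison in which the no-tag control is not the reference. The no-tag libraries were still in the same fit and so entered its filter, scaling and spread. EdgeR called 170 features higher with Npl3 than with Mex67 (3.24%) and 36 lower (0.686%), and limma voom called 0. Without either no-tag library at 42 °C in the fit, without Npl3 replicate 1 or without Mex67 replicate 2 the count was 0. Respiratory messages led here as well: 13 of the 45 oxidative phosphorylation members were called higher and 0 lower, with a median of 1.72, against 0.04 for all features. COX26 had 4.16 ± 0.68, ATP19 3.26 ± 0.69 and COX9 2.79 ± 0.64 (adjusted p = 0.0319, 0.0383 and 0.0411 with edgeR). Of the mitochondrial ribosomal proteins 11 were higher, of the spliceosome 10, among them SNT309 (3.85 ± 0.63), and of the cytosolic ribosomal proteins 12, among them RPS29B (2.81 ± 0.58). RPN10 was lower, at −1.60 ± 0.34. GFD1 had 2.15 ± 0.66 and the NPL3 message 1.59 ± 0.49 in this difference, and neither passed (adjusted p = 0.0848 and 0.083). The branched-chain genes had 0 called members and a median of −0.60, with ILV3 at −0.61 ± 0.56, and the small nucleolar RNAs had 0 called and a median of −1.05. Against the same no-tag libraries, which both proteins share as control, Mex67 had 0 called features (601 at an unadjusted p under 0.05), with ILV3 at −1.93 ± 0.58 and COX26 at 0.25 ± 0.90.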

How the data were processed

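The authors deposited raw whole-number counts per gene feature, with 1 table for each library. Per the submitters' processing notes, the tools were Subread 1.5.0-p1 with featureCounts, STAR, CASAVA 1.8.2 and DESeq2, and the genome build was R64. Settings for strand and multi-mapping were those of the authors, not given in the sources used here. Per the labels' protocols, 500 ng of RNA was fragmented (200 bp) without depletion of rRNA. Of 7126 features, 6048 were named by locus tag and 121 by symbol.

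All 12 libraries (6 groups of 2) were fitted with edgeR 4.0.16 in R 4.3.3 (quasi-likelihood, TMM scaling, filterByExpr at 10 counts and a total of 15). There were 6 residual degrees of freedom and a common biological coefficient of variation of 0.356. The SE is the log2 change over the square root of F, so it rests on all 12 libraries. P-values were adjusted by Benjamini-Hochberg at 0.05 over all 5245 features. DESeq2 1.42.0, limma 3.58.1 voom, other scalings, filters and fits, a length correction (lowess per library on log10 length of coding genes, span 0.4) and leaving out each library were alternatives. CPM ratios for genes with few control counts have exact intervals (scipy 1.17.1). The procedure was tested on simulated data. Figures were drawn with matplotlib 3.10.9.

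The naming rule took the 12 largest changes in each direction among called genes that averaged 50 counts or more without overlap of the groups, then the 3 called members with the largest changes in each direction for each of 24 lists, and 21 fixed genes. Not all are in the text, and further list members and values in the text were picked with their values in view. The comparison, the lists and the rule were chosen with earlier results of these data known. Lists were described and not tested. Replicate numbers come from the titles. The labels do not say that they pair libraries of different strains.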

Additional observations from a re-analysis of the deposited data

How the results depend on the processing

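The 391 calls became 96 with length correction (87 higher, 9 lower), 0 with the 6 libraries at 42 °C alone (lowest adjusted p = 0.0574, edgeR) and 661 with total counts only (645 and 16), where the median of all features went to 0.52. The lower calls numbered 167 with DESeq2 (408 higher), 116 with limma voom (238 higher), 80 without a low-count filter and 89 with the 4 compared libraries. Leaving out 1 library at a time gave 0 to 666 calls, 0 to 518 higher and 0 to 148 lower. Lower calls also moved outside the compared groups, to 141 and 138 without either Mex67 library at 42 °C, 26 without either Npl3 library at 25 °C and 31 without Mex67 replicate 1 at 25 °C. The difference from Mex67, with 206 calls, gave 106 with TMM from coding genes, 0 with length correction, with limma voom and with the 6 libraries at 42 °C, 95 with a mean of at least 50 counts, 367 without a filter and 9 with total counts. It gave 0 to 401 when 1 library was left out. The difference between the temperatures gave 0 in every fit with libraries of both temperatures. The rank correlation with length was −0.0222 after length correction, by construction, and −0.445 to −0.28 with 1 library left out. The cause of the other changes was not tested.

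Whether replicate numbers pair libraries of different strains was not settled. The deviations of same-numbered Npl3 and no-tag libraries had a correlation of −0.115 over 2247 genes, while STE2 was higher in replicate 2 of both groups. With the replicate number as a block, 513 features were called (409 higher, 104 lower), and 456 in the difference from Mex67. With the replicate block and length correction together there were 204 (171 higher, 33 lower), 110 in the difference from Mex67, and a rank correlation of −0.0192. Within a strain the labels say that cultures were divided between the temperatures, and same-numbered libraries correlated by 0.114 (Npl3) and 0.266 (no tag) over the same genes. A replicate block within each strain, chosen after seeing the data, called 0 features in the difference between the temperatures, as did the fit without it.

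Of the named genes, those whose sign turned were not called. MEX67 had 0.0032 with length correction and 0.0937 with total counts, HSP12 −0.558 with length correction and −0.586 with the replicate block added, and STE2 −0.742 with limma voom. With 1 library left out the ranges that crossed 0 were −0.147 to 3.62 for HSP12, −0.0932 to 1.04 for HSP104, −0.115 to 1.45 for SSA4, −1.36 to 0.357 for SSA1, −3.76 to 9.16 for STE2 and −0.0852 to 0.403 for snR6. The 87741 counts of no-tag replicate 1 limit every value that rests on it.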

Other observations

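Most called genes were in none of the gene lists, 242 of the 342 higher and 32 of the 49 lower. The 3 groups below were chosen after their values were seen and are described without a test. Of all tested features 6.52% were called higher and 0.934% lower. The ESCRT proteins sort membrane cargo into vesicles that bud into endosomes. Of their 15 tested messages 9 were called higher and 0 lower, with a median log2 change of 2.69 and 13 above 0. VPS24, an ESCRT-III subunit, had 511 and 181 CPM with Npl3, against 33.5 and 20.6 CPM without a tag, and CHM7, which works at the nuclear envelope, had 253 and 109 CPM, against 0 and 13.8 CPM. Their log2 changes were 3.88 ± 0.69 and 3.94 ± 0.72. The DASH complex couples kinetochores to microtubules, and 4 of its 10 messages were called higher (median 1.73), with all 10 above 0. DAD2, 1 of its small subunits, had 170 and 60.4 CPM with Npl3, against 0 and 13.8 CPM without a tag. These genes were short too, with median lengths of 702 bp for ESCRT and 450 bp for DASH, and the part of length was not tested for them.

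On the lower side, 5 of 12 messages of the methyl cycle and one-carbon metabolism were called lower and 1 higher, with a median of −2.02. Of all features 0.934% were called lower and 6.52% higher. SAM1 and SAM2, the S-adenosylmethionine synthetases, had 17.4 and 118 CPM and 18.6 and 53.7 CPM with Npl3, against 970 and 346 CPM and 318 and 128 CPM without a tag. SAM2 was called (−2.46 ± 0.66) and SAM1 missed the threshold (−3.21 ± 0.92, adjusted p = 0.057 with edgeR). The pair are close paralogues, so the split of reads between them is uncertain. MTD1, a cytosolic methylenetetrahydrofolate dehydrogenase, went the other way, with 335 and 297 CPM with Npl3, against 117 and 57.3 CPM without a tag (2.06 ± 0.46).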
